A study of Homo sapiens with 6 samples.

Results

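The expression of 10 genes of base excision repair and poly(ADP-ribose) synthesis was compared between OVCAR3 cells exposed to DMSO and to THZ531. The genes were PARP1, PARP2, XRCC1, OGG1, MUTYH, UNG, NTHL1, APEX1, LIG3 and POLB. They were chosen by symbol as genes of the pathway, with earlier results of these data known, and each of them matched 1 of the 47577 loci in the deposited table, of which 26793 carry a symbol. OVCAR3 is an established cell line of high-grade serous ovarian carcinoma, and THZ531 is a covalent inhibitor of CDK12 and CDK13, kinases that phosphorylate RNA polymerase II during elongation. PolyA-selected RNA was sequenced from 3 biological repeats with the solvent DMSO and from 3 with 200 nM THZ531, all taken at 6 h. No allele or transgene is named for either group, and both groups are the same cell line, so the values describe a single line at a single dose and time. The library titles and the treatment field name THZ531, whereas the treatment protocol of the same samples names the related compound THZ1, and the titles were followed here.

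Base excision repair removes small lesions of DNA bases, such as uracil, oxidized bases and abasic sites. A DNA glycosylase cuts out the damaged base, the endonuclease APEX1 opens the strand at the abasic site, DNA polymerase beta (POLB) fills the gap, and DNA ligase 3 (LIG3), held by the scaffold XRCC1, seals the nick. PARP1 and PARP2 bind the strand break and build chains of ADP-ribose that bring XRCC1 to it, and both enzymes are the targets of the PARP inhibitors used against ovarian cancer.

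The reads counted on genes numbered between 60146046 and 70986130 per DMSO library and between 53054048 and 57953296 per THZ531 library. Every treated library was thus shallower than every control. The deposited values are these counts divided by a size factor for each library, and are called normalized reads below. The labelled cell type was compared with its markers, and all 8 serous ovarian markers examined were expressed, with KRT7 at 130310.0 ± 3989 and EPCAM at 21222 ± 542 normalized reads in DMSO (SD, n = 3). PAX8, a transcription factor of the serous lineage, was at 11272 ± 545 in DMSO and at 1241 ± 121 in THZ531. By adjusted p in limma, 5 of the 8 markers rose as deposited (KRT7, EPCAM, CDH1, SOX17 and MSLN, by 0.08 to 0.38 on the log2 scale), 2 fell (PAX8 and MUC16) and WT1 did not pass, with a list median of 0.18 that was -0.06 with equal totals and -0.31 with RPL34. Of 6 markers of fibroblasts, leukocytes, endothelium and intestinal epithelium, DCN reached at most 3.19 and KRT20 at most 5.57 normalized reads in any library, whereas PTPRC was at 33.6 ± 16.6 in DMSO and 24.1 ± 6.02 in THZ531 and PECAM1 at 63.9 ± 13.8 and 59.3 ± 24.5. The fibroblast markers COL1A1 and COL3A1 were called higher as deposited, COL3A1 going from 724 ± 171 to 1080.1 ± 111 (log2 fold change 0.60, adjusted p = 5.0e-04 in limma). The summed level of the 6 markers was 1768, 1697 and 2001 in DMSO and 3302, 3519 and 3244 in THZ531. COL1A1, the most abundant of them, was at 995 ± 47.5 in DMSO and at 2190.4 ± 141 in THZ531, and the part of these changes in the results below was not tested. In bulk RNA, fewer cells of a type and less RNA per cell cannot be told apart.

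All 10 genes passed the expression minimum of 10 normalized reads in at least 3 libraries, as did 17568 loci in all. A locus was called when its fold change was at least 1.5 and its unadjusted p in limma at most 0.05. Of the 10 genes, 1 was called higher in THZ531 (UNG) and 2 were called lower (XRCC1 and MUTYH). Among all tested loci 39.5% were called, 15.7% higher and 23.9% lower, and among those with a symbol 37.0% were called, so that 3 of 10 is not above the share in the transcriptome. With libraries scaled to the same total, or to RPL34, 0 of the 10 genes were called higher and 5 lower, while the share of all tested loci called lower was 32.0% and 42.8%. When only a Benjamini-Hochberg adjusted p of at most 0.05 in limma was asked for, 3 genes were higher, 5 were lower and 2 did not pass, against 68.6% of all tested loci that passed, 34.6% higher and 34.1% lower. A gene is said here to have risen or fallen where that adjusted p was at most 0.05. In 8 of the 10 genes the 3 DMSO and the 3 THZ531 values did not overlap, with THZ531 higher in 3 and lower in 5, compared with 71.7% of all tested loci, 36.0% with THZ531 higher and 35.7% lower. The log2 fold changes ran from -1.03 to 0.59, with a median of -0.25 against -0.01 over all tested loci. The summed normalized reads of the 10 genes were 45642, 46769 and 46542 in DMSO and 46939, 46479.7 and 46795 in THZ531. The rises and falls thus nearly cancelled in the sum on this scale. As a percent of all normalized reads of a library the 10 genes made up 0.0824, 0.0838 and 0.0822 in DMSO and 0.0702, 0.0706 and 0.0710 in THZ531, a lower share in every treated library.

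**Figure D1:**
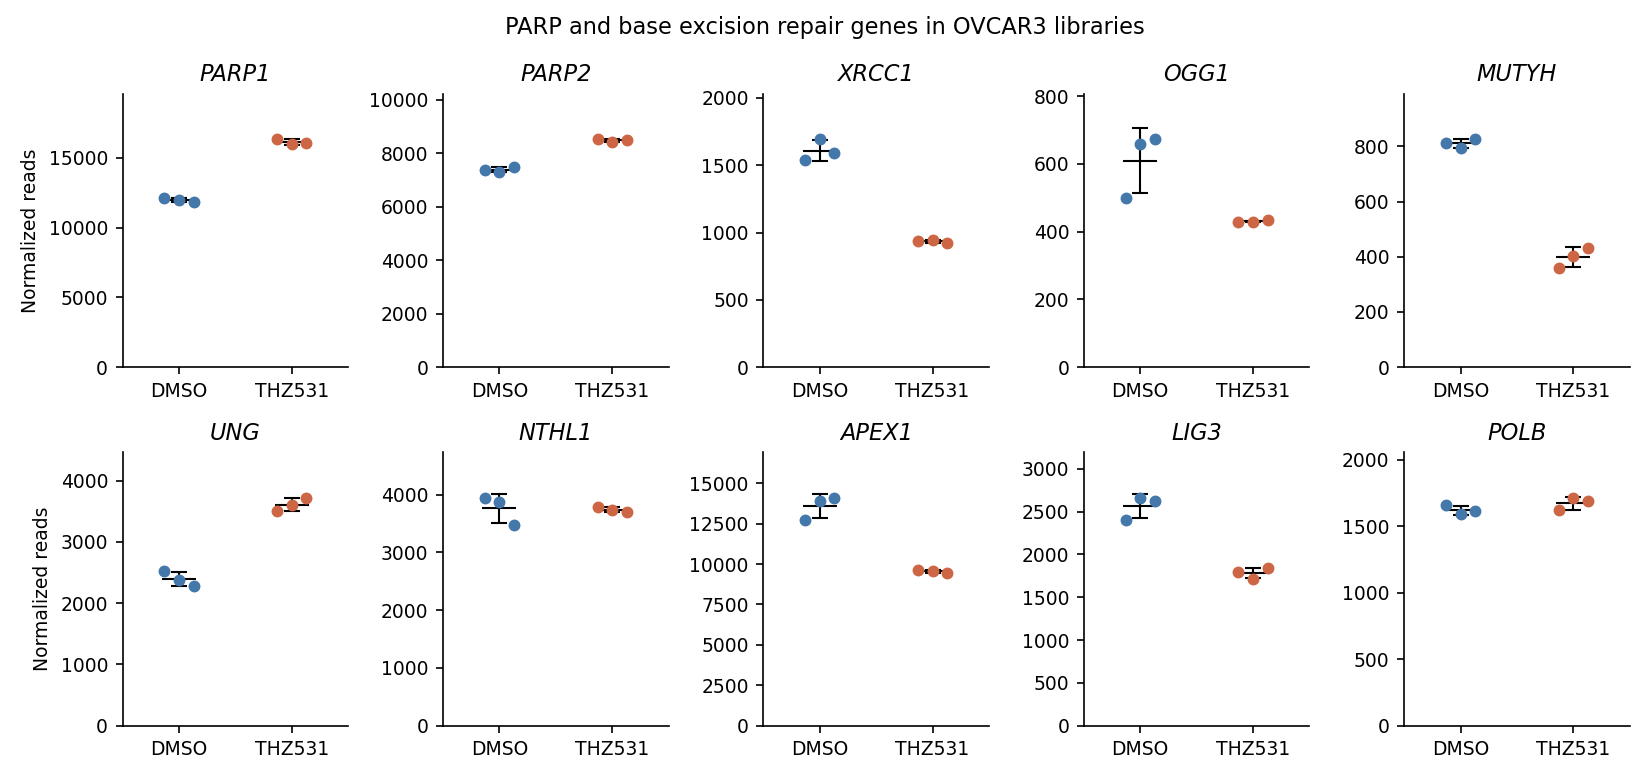
Normalized reads of the 10 genes in each of the 3 DMSO and 3 THZ531 libraries (points; each gene has its own axis from 0), with the group means (wide lines) and SDs (bars). The groups overlap for NTHL1 and POLB and are apart for the other 8 genes on the deposited scale, with PARP1, PARP2 and UNG higher in THZ531. With libraries scaled to RPL34 the log2 fold change of PARP1 was -0.06 and that of PARP2 -0.29, and with libraries scaled to the same total that of PARP2 was -0.04.

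Stretches of DNA upstream of a RefSeq start of 5 of the genes are shown, chosen to include the gene called higher (UNG), a gene called lower (XRCC1), the PARP gene with the larger change (PARP1) and 2 examples of genes with a divergent neighbour (APEX1 with OSGEP, NTHL1 with TSC2). The XRCC1 stretch lies upstream of the RefSeq start at 43575527 but inside the XRCC1 locus of the deposited table, which begins further upstream. Each is free of annotated exons, is written 5′ to 3′ on the strand of the repair gene, and comes from RefSeq on GRCh38.p14. Capitals mark GGGCGG, the core of the GC box, and CCAAT, on either strand. The stretches lie at chr12:109097347-109097596 (plus strand) for UNG, chr19:43575619-43575777 (minus) for XRCC1, chr1:226408155-226408343 (minus) for PARP1, chr14:20455090-20455190 (plus) for APEX1 and chr16:2047867-2047966 (minus) for NTHL1.
UNG: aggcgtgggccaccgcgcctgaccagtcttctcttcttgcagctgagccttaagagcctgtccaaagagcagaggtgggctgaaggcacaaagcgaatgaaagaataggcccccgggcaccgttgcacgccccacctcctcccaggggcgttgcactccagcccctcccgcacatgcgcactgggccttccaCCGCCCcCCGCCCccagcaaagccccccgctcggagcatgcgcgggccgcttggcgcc
XRCC1: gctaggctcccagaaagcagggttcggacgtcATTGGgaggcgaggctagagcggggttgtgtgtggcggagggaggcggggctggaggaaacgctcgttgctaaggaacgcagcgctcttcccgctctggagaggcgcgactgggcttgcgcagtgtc
PARP1: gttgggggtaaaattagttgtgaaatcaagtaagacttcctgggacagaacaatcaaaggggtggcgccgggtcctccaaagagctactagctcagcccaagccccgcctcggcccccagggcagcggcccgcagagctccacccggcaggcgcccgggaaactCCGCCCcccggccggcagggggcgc
APEX1: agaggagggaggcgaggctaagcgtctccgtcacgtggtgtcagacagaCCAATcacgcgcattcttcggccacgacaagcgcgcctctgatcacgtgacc
NTHL1: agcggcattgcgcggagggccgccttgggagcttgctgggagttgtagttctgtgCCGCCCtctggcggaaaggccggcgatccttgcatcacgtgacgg

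The UNG stretch had 2 copies of the GC box core side by side, and those of PARP1 and NTHL1 had 1 each. XRCC1 and APEX1 had 1 CCAAT each in these stretches and no GC box core. RefSeq windows of 300 bases around the start sites, which 9 of the 10 genes have, were also searched. The GC box core was found there for 8 genes (LIG3, MUTYH, NTHL1, OGG1, PARP1, PARP2, UNG and XRCC1). CCAAT was found for 5 (APEX1, MUTYH, OGG1, UNG and XRCC1). XRCC1 thus had the GC box core in a window, though not in the shorter stretch printed above. By window, 10 of the 12 windows of these genes held the GC box core and 7 held CCAAT. Among all 35116 windows of that length, 45.0% held the first motif and 34.6% the second. The genes with CCAAT, like those with the GC box core, included the called gene that was higher and both that were lower. A match is a description of letters only.

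PARP1 and PARP2, the sensors of strand breaks, had slightly higher values in THZ531 as the libraries were deposited. With libraries scaled to RPL34 PARP2 fell and PARP1 did not pass the test. PARP1 (chr1:226360691-226408093, minus strand) had 12120.5, 11936 and 11835 normalized reads in DMSO and 16332, 15959 and 16084 in THZ531. The lowest THZ531 library was above the highest DMSO library by far more than the spread within either group, which was 145 (SD, n = 3) in DMSO and 189 in THZ531. This gave a log2 fold change of 0.43 (SE 0.03, 95% interval 0.36 to 0.50, adjusted p = 9.5e-09 in limma), which is a fold of 1.35 and thus short of a call. It was -0.06 (adjusted p = 0.5 in limma) when the libraries were scaled to the ribosomal protein gene RPL34. That scaling takes a single gene as constant, which was not tested. PARP2 (chr14:20343635-20357904, plus strand) had 7377, 7281 and 7491 normalized reads in DMSO and 8523, 8404 and 8502 in THZ531. Here too the groups were apart, but the fold was only 1.15. For PARP2 the log2 fold change was 0.20 (SE 0.04, 95% interval 0.12 to 0.28, adjusted p = 1.2e-04 in limma). It was -0.04 with libraries scaled to the same total (adjusted p = 0.29 in limma) and -0.29 with RPL34 (adjusted p = 0.0036 in limma).

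XRCC1, the scaffold that gathers the later enzymes at the break, fell in THZ531. XRCC1 (chr19:43543040-43576006, minus strand) had 1541, 1694 and 1593 normalized reads in DMSO and 935, 945 and 924 in THZ531. All 3 treated libraries lay well below the controls and close to one another. The mean went from 1609.6 ± 78.0 to 934 ± 10.4 (SD, n = 3), which is 58.0% of DMSO, with a log2 fold change of -0.78 (SE 0.06, 95% interval -0.91 to -0.65, adjusted p = 1.3e-08 in limma). Its log2 fold change lay between -1.28 and -0.75 in the 17 alternatives run for it, and it was called lower in all 17.

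LIG3, the ligase that XRCC1 holds, was lower as well, without reaching the fold for a call as deposited. LIG3 (chr17:34980512-35009743, plus strand) had 2402, 2663 and 2627 normalized reads in DMSO and 1793, 1718 and 1839.6 in THZ531. The groups did not overlap. Its log2 fold change was -0.52 (SE 0.06, 95% interval -0.64 to -0.40, adjusted p = 4.3e-07 in limma), or 1.44-fold lower. With equal totals LIG3 was at -0.77 and with RPL34 at -1.02, and it was called lower in both. POLB, the polymerase that fills the gap (chromosome 8, 42338455 to 42371808, plus strand), had 1659, 1590.4 and 1613 normalized reads in DMSO and 1619.7, 1716 and 1687 in THZ531. These groups overlapped. For POLB the log2 fold change was 0.05 with a 95% interval of -0.07 to 0.16 (adjusted p = 0.46 in limma), an interval that leaves out a change of 1.5-fold in either direction on the deposited scale. Scaled to the same total it was -0.20 (adjusted p = 0.0063 in limma) and with RPL34 -0.45 (adjusted p = 2.1e-04 in limma).

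APEX1, the endonuclease that cuts at abasic sites, was the most abundant of the 10 per length. APEX1 (chr14:20455191-20457768, plus strand) had 12759, 13906 and 14115 normalized reads in DMSO and 9664, 9552 and 9469 in THZ531. Every treated library was below every control. On the log2 scale the change was -0.51 (SE 0.04, 95% interval -0.59 to -0.42, adjusted p = 1.6e-08 in limma), or 1.42-fold lower, short of a call. With libraries scaled to the same total it was -0.75, and APEX1 was then called lower, as it was with RPL34.

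The DNA glycosylases went in different directions. UNG, which removes uracil from DNA, rose as the libraries were deposited, MUTYH and OGG1, which act on oxidized guanine or the adenine paired with it, fell, and NTHL1, which removes oxidized pyrimidines, did not pass the test as deposited. UNG (chr12:109097597-109110992, plus strand) had 2523, 2375 and 2289 normalized reads in DMSO and 3500.1, 3612 and 3725 in THZ531. The treated libraries were all above the controls. Its log2 fold change was 0.59 (SE 0.05, 95% interval 0.49 to 0.70, adjusted p = 3.0e-08 in limma), just past the threshold of 0.585, and UNG was called in 11 of the 17 alternatives. The value of UNG stayed above 0 in each of these, between 0.10 and 0.63. At the low end, with RPL34, it did not pass (adjusted p = 0.28 in limma). It was 0.56 without DMSO replicate 3 and 0.57 without THZ531 replicate 3.

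MUTYH, which removes adenine mispaired with 8-oxoguanine, had the largest change of the 10 genes as deposited. MUTYH (chr1:45329163-45340447, minus strand) had 812, 794 and 826 normalized reads in DMSO and 360.2, 404 and 431 in THZ531. The mean went from 811 ± 15.8 to 398 ± 35.8 (SD, n = 3), or 49.1% of DMSO, and the groups were far apart. Its log2 fold change was -1.03 (SE 0.09, 95% interval -1.22 to -0.84, adjusted p = 4.3e-08 in limma), and MUTYH was called lower in all 17 alternatives, with values between -1.52 and -0.96.

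OGG1, which excises 8-oxoguanine itself, was the least even of the genes among the controls. OGG1 (chr3:9749952-9766658, plus strand) had 498, 658 and 673 normalized reads in DMSO and 428, 429 and 433 in THZ531. DMSO replicate 1 lay between its fellow controls and the treated libraries, which were nearly equal. On the log2 scale the change was -0.49 (SE 0.11, 95% interval -0.72 to -0.25, adjusted p = 9.5e-04 in limma), short of a call. Without DMSO replicate 1 it was -0.63, with equal totals -0.73 and with RPL34 -0.98, and OGG1 was called lower in each. NTHL1 (chr16:2039815-2047866, minus strand) had 3950.5, 3872 and 3479.6 normalized reads in DMSO and 3785, 3742 and 3699.7 in THZ531. All treated values fell inside the range of the controls, and the log2 fold change was -0.01 with a 95% interval of -0.11 to 0.10 (adjusted p = 0.9 in limma). Scaled to the same total it was -0.25 (adjusted p = 6.7e-04 in limma) and with RPL34 -0.50 (adjusted p = 1.1e-05 in limma), short of a call in both.

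**Figure D2:**
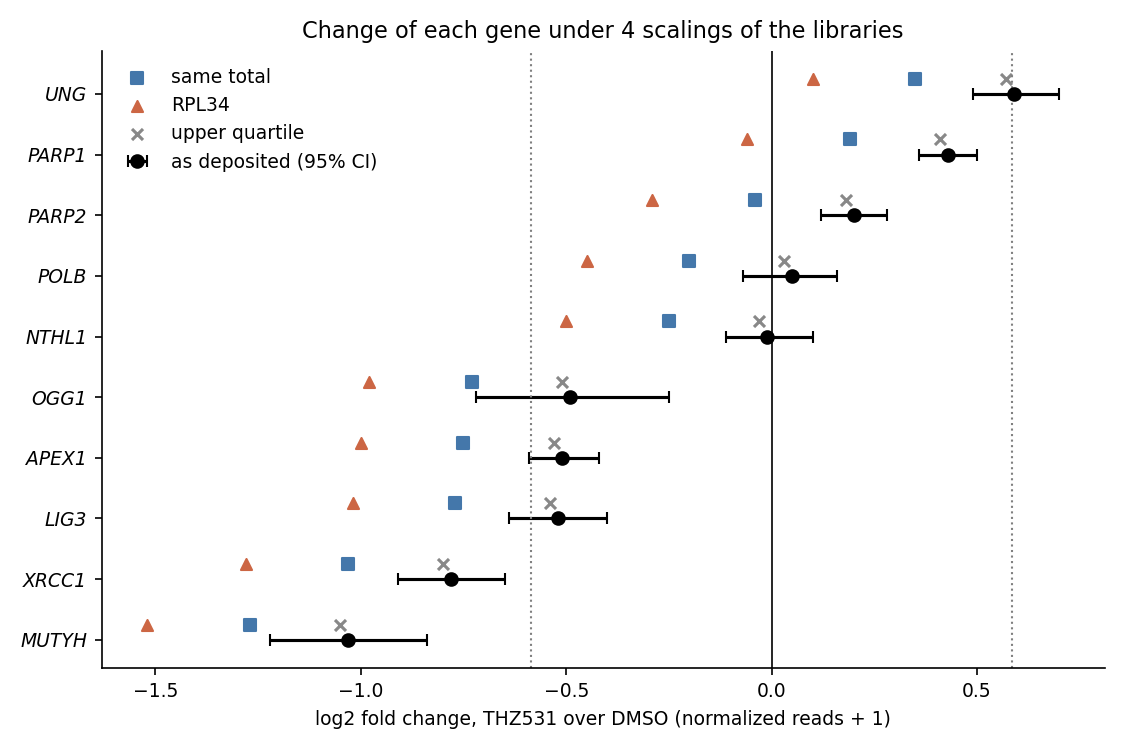
Log2 fold change of THZ531 over DMSO for the 10 genes as deposited (black points, with 95% intervals from limma as bars) and with libraries scaled to the same total (squares), to RPL34 (triangles) or to the upper quartile (crosses), where dotted lines mark a fold of 1.5. As deposited MUTYH (-1.03) and XRCC1 (-0.78) lie beyond the lower line and UNG (0.59) sits on the upper one. The positive values of PARP1, PARP2 and POLB turn negative when libraries are scaled to RPL34, where PARP1 (-0.06) did not pass (adjusted p = 0.5 in limma).

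The level of each gene per length was taken as normalized reads per kilobase of its spliced MANE transcript. In DMSO the order from high to low was APEX1 (9355), PARP2 (4041), NTHL1 (3658), PARP1 (3007), POLB (1256), UNG (1169.7), XRCC1 (784), MUTYH (475), OGG1 (374) and LIG3 (306). Only the last 2 neighbours in this order, OGG1 and LIG3, overlapped between libraries. In THZ531 PARP1 (4054) stood above NTHL1 (3633), UNG (1764) above POLB (1298) and OGG1 (264) above MUTYH (233), and only MUTYH and LIG3 (213) overlapped. These 3 pairs exchanged places in the order, while APEX1 and PARP2 led it in both groups.

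Ratios between genes of the same library do not depend on how libraries are scaled. The 9 pairs below were chosen after their values were seen and are a description, with no test. PARP1 to XRCC1 was 7.87, 7.04 and 7.43 in DMSO and 17.5, 16.9 and 17.4 in THZ531, a 2.32-fold higher mean. The ratio of the break sensor to the scaffold was thus higher in every treated library. UNG to MUTYH went from 3.11, 2.99 and 2.77 to 9.72, 8.95 and 8.64, which is 3.08-fold higher. UNG to OGG1 went from 4.03 ± 0.909 to 8.40 ± 0.212 and NTHL1 to MUTYH from 4.65 ± 0.379 to 9.45 ± 0.976 (SD, n = 3). All 3 of these glycosylase ratios were higher in each treated library than in any control. APEX1 to PARP1 was 1.05, 1.17 and 1.19 in DMSO and 0.592, 0.599 and 0.589 in THZ531, which is the widest fall among the 9 ratios. The ratio of APEX1 to POLB was 7.69, 8.74 and 8.75 in DMSO and 5.97, 5.56 and 5.61 in THZ531, and that of POLB to XRCC1 was 1.01 ± 0.0691 and 1.79 ± 0.0513. The smallest shifts were those of PARP1 to PARP2 (1.62 ± 0.0353 to 1.90 ± 0.0125) and of LIG3 to XRCC1 (1.59 ± 0.0487 to 1.91 ± 0.0869).

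**Figure D3:**
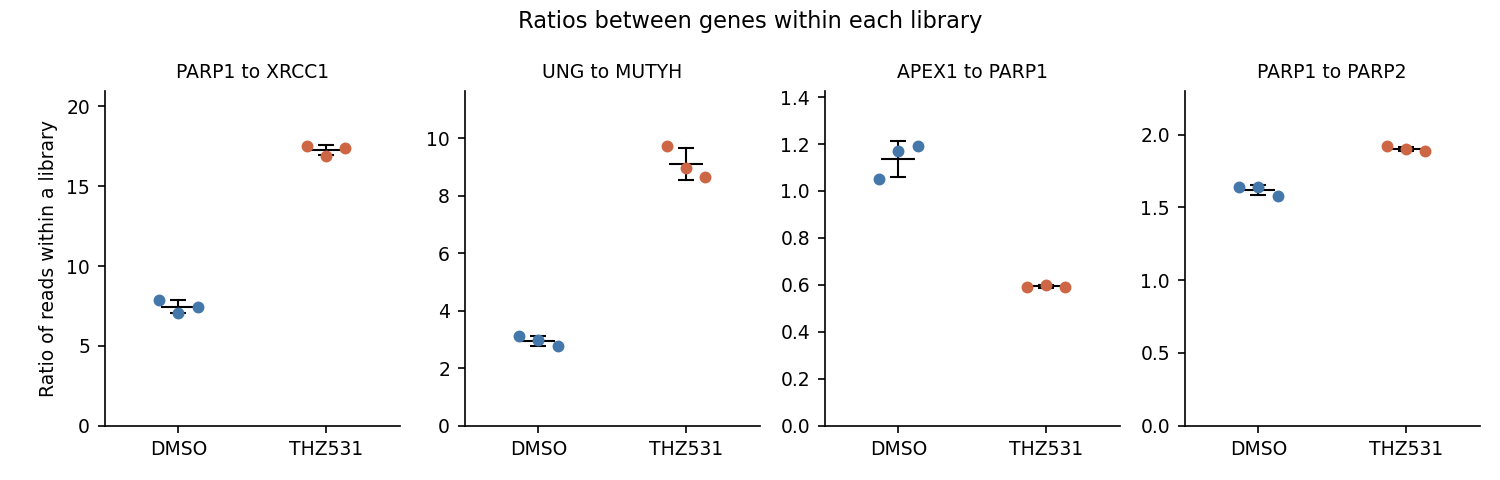
Ratios of reads between 4 pairs of the genes in each DMSO and THZ531 library (points; axes from 0), with the group means (wide lines) and SDs (bars). PARP1 to XRCC1 moved from a mean of 7.45 to 17.3, UNG to MUTYH from 2.96 to 9.10, APEX1 to PARP1 from 1.14 to 0.593 and PARP1 to PARP2 from 1.62 to 1.90, with the groups apart in each.

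The changes were also set beside gene length. The tested loci with a symbol were divided into 5 bins of equal number by length. APEX1 (2.58 kb) belongs to the shortest, where the median log2 fold change of named loci was 0.11 and 19.6% were called lower, yet its own value was -0.51. PARP2, OGG1, MUTYH, UNG and NTHL1 belong to the next bin (8.03 to 19.4 kb), with a median of -0.08 and values among these 5 genes from -1.03 to 0.59. XRCC1, LIG3 and POLB lie in the bin of 19.4 to 39.5 kb (median -0.04), and PARP1, the longest at 47.4 kb, lies in the bin of 39.5 to 87.5 kb (median -0.02) and had a positive value as deposited. MUTYH (11.3 kb, 16 exons) and UNG (13.4 kb, 7 exons) are close in length and had the lowest and the highest value of the 10.

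Several of the genes overlap or adjoin other loci, and how the counting treated strand is not given in the sources used here, so reads from overlapping parts cannot be told apart. MUTYH overlaps TOE1, a nuclear deadenylase gene on the opposite strand, by 778 bases at their divergent starts. TOE1 had 514, 499 and 598 normalized reads in DMSO and 159, 172 and 248 in THZ531, and was called lower with a log2 fold change of -1.50 (SE 0.15, adjusted p = 2.4e-07 in limma). Both genes of this pair were thus lower in every treated library. HPDL, 452 bases from MUTYH, was not called (0.91, SE 0.48, adjusted p = 0.1 in limma), and its groups overlapped.

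APEX1 lies between OSGEP, a tRNA modification gene 378 bases from it, and PIP4P1, a phosphoinositide phosphatase gene that overlaps it by 75 bases, both on the minus strand. PIP4P1 had 1445, 1547 and 1542 normalized reads in DMSO and 664, 557 and 565 in THZ531 and was called lower (log2 fold change -1.35, SE 0.08, adjusted p = 3.8e-10 in limma). OSGEP, which shares the upstream stretch printed above, had a mean of 3190.4 ± 109.8 in DMSO and 2819.8 ± 126 in THZ531 (SD, n = 3) and was not called (-0.18, SE 0.05, adjusted p = 0.0047 in limma). All 3 loci were lower in THZ531 as deposited, by unequal amounts.

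NTHL1 and the tumour suppressor gene TSC2 begin 118 bases apart on opposite strands, and neither was called. TSC2 had a mean of 17887 ± 209 normalized reads in DMSO and 18839 ± 132 in THZ531 (SD, n = 3), with a log2 fold change of 0.07 (SE 0.03, adjusted p = 0.048 in limma) that is smaller than the shift of -0.24 from equal totals. SLC9A3R2, 788 bases from NTHL1, was at -0.05 (SE 0.07, adjusted p = 0.5 in limma). RFFL, which overlaps LIG3 by 3754 bases, had a log2 fold change of -0.18 (SE 0.09, adjusted p = 0.11 in limma) and overlapping groups. RPPH1, the RNase P RNA gene 223 bases from PARP2, had 189, 66.8 and 93.4 normalized reads in DMSO and 139.8, 185 and 231 in THZ531, and was called higher (0.77, SE 0.29, adjusted p = 0.028 in limma) although its groups overlapped. PINLYP, 793 bases from XRCC1, and an unnamed locus inside LIG3 were below the expression minimum.

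OGG1 holds an unnamed locus of 2690 bases at chr3:9760714-9763403 with a lower log2 fold change than any of the 10 genes. It had 111, 114 and 101 normalized reads in DMSO and 20.2, 23.9 and 33.0 in THZ531. The groups were far apart, and the log2 fold change was -2.07 (SE 0.27, adjusted p = 5.1e-06 in limma), compared with -0.49 for OGG1. The locus was called lower in all 19 alternatives, the 3 scalings included. Its coordinates overlap an OGG1 exon model that ends at 9762324 and exons of CAMK1, a kinase gene on the minus strand that overlaps OGG1 by 9314 bases, so its reads cannot be given to either with certainty. CAMK1 itself had 152, 157 and 137 normalized reads in DMSO and 180.1, 199 and 169.5 in THZ531 and was not called (0.29, SE 0.15, adjusted p = 0.099 in limma). The locus listed as TTLL3, which spans OGG1, had 63.5, 125 and 92.6 normalized reads in DMSO and 74.3, 45.5 and 33.0 in THZ531 and was called lower with overlapping groups (-0.89, SE 0.32, adjusted p = 0.02 in limma).

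**Figure D4:**
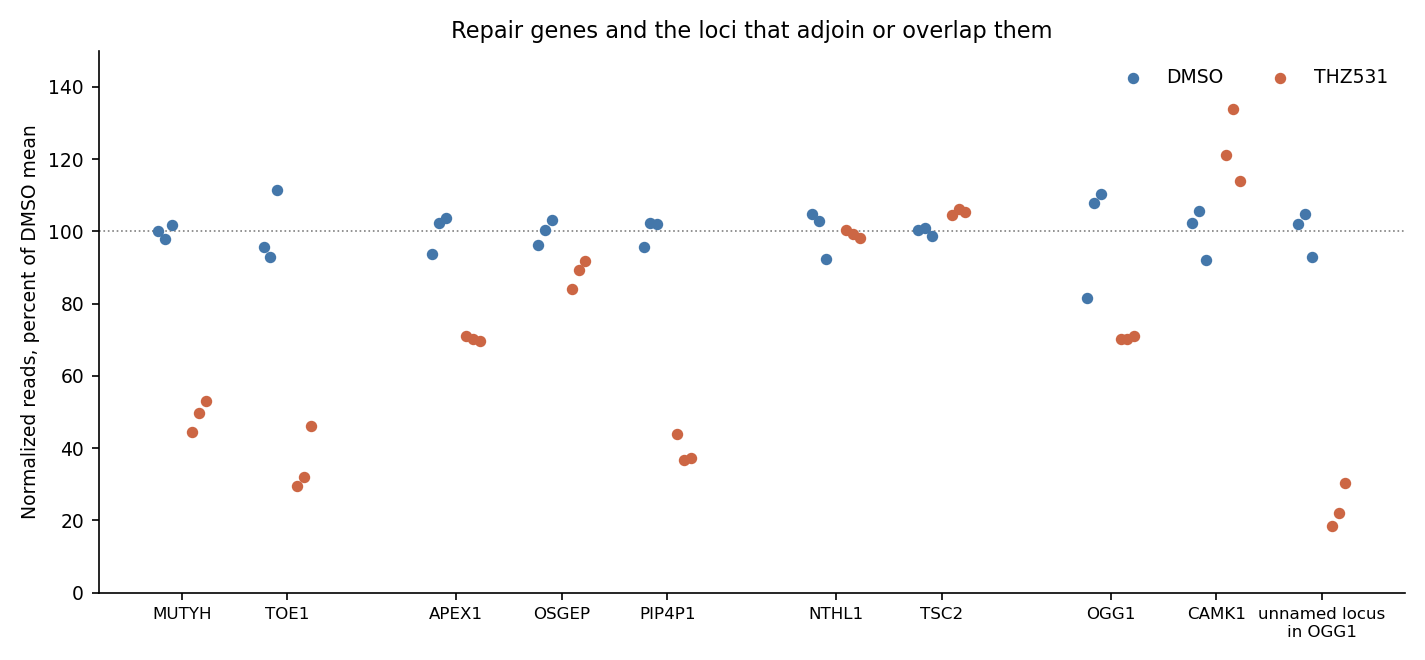
Normalized reads of MUTYH, APEX1, NTHL1 and OGG1 and of loci that overlap or adjoin them, as a percent of the DMSO mean of the same locus (dotted line), in each DMSO and THZ531 library (points). TOE1, PIP4P1 and the unnamed locus inside OGG1 were called lower (log2 fold changes -1.50, -1.35 and -2.07), whereas TSC2 and OSGEP were not called.

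The 10 genes were set beside 51 further genes of base excision repair, ADP-ribosylation and the nucleotide pool, called further pathway genes below. They form 6 lists, and 49 of them were tested. The other PARP family makes up 15 of the 51, and not all of its members are repair genes. Of the 49 tested, 3 were called higher and 13 lower, or 6.12% and 26.5%, against 15.7% and 23.9% of all tested loci. Their median log2 fold change was 0.02 as deposited, -0.22 with equal totals and -0.47 with RPL34. With libraries scaled to the same total 3 were called higher and 20 lower (6.12% and 40.8%, against 9.38% and 32.0% of all tested loci). With RPL34 1 was higher and 22 lower (2.04% and 44.9%, against 6.14% and 42.8%).

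Among the other DNA glycosylases, 0 of 7 genes were called higher and 3 lower, with a median of -0.57. Of all tested loci 15.7% were called higher and 23.9% lower. With edgeR and under each of the 3 other scalings 5 of the 7 were called lower. The share of all tested loci called lower was 24.4% with edgeR, 24.5% with the upper quartile, 32.0% with equal totals and 42.8% with RPL34. NEIL3, a glycosylase for oxidized bases, had 491, 397 and 448 normalized reads in DMSO and 93.2, 127 and 122 in THZ531, a log2 fold change of -1.96 (SE 0.15, adjusted p = 9.5e-09 in limma). SMUG1, which like UNG removes uracil, went from 1323 ± 196 to 792 ± 88.7 (SD, n = 3; -0.74), opposite to UNG as deposited. NEIL1 was called lower at a low level (86.4 ± 3.60 to 54.1 ± 24.1). NEIL2 (-0.02) and MBD4 (-0.56, just short of the threshold) were not called as deposited. In end processing, which trims and repairs broken DNA ends, 3 of 5 tested genes were called lower, namely the polymerase POLL (-2.24, from 798, 845 and 780.3 to 147, 168 and 199), the APEX1 paralog APEX2 (-1.11, from 4388 ± 30.4 to 2034 ± 73.5) and the phosphodiesterase TDP1 (from 1118 ± 39.0 to 560.1 ± 9.01), and APTX (-0.38) was not. With RPL34 all 5 were called lower, against 42.8% of all tested loci. The difference between APEX2 and APEX1 was not tested.

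In long-patch synthesis, the branch of base excision repair that uses the replication enzymes, 1 of 11 genes was called higher and 1 lower. Of all tested loci 15.7% were called higher and 23.9% lower. The list median was 0.19 as deposited, and it turned to -0.05 with libraries scaled to the same total and to -0.30 with RPL34. PCNA, the sliding clamp, had 6250.4, 6106 and 6051 normalized reads in DMSO and 11464, 10908 and 10990.0 in THZ531 (log2 fold change 0.86, SE 0.04, adjusted p = 1.4e-11 in limma), and it was not called with RPL34. POLD3, a subunit of DNA polymerase delta, fell (-0.75, from 1079 ± 46.3 to 641 ± 48.6), and FEN1 (0.19) and POLD2 (0.21) were not called. Of the 4 tested genes that clean the nucleotide pool none was called as deposited and 1 was called lower with RPL34, with DUT at 0.27 and DCTPP1 at 0.20 as deposited.

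Of the other PARP family, 2 of 14 tested genes were called higher and 3 lower, with a median of -0.17. Of all tested loci 15.7% were called higher and 23.9% lower, and the share lower was 32.0% with equal totals and 42.8% with RPL34. With libraries scaled to the same total 2 were higher and 7 lower (median -0.41), and with RPL34 1 was higher and 7 lower (median -0.66). ZC3HAV1, an antiviral RNA-binding member without catalytic activity, had 1974, 1986 and 1984 normalized reads in DMSO and 4969, 4884 and 4935 in THZ531 (log2 fold change 1.31, SE 0.04, adjusted p = 7.3e-13 in limma). TIPARP rose from 349 ± 7.21 to 699.9 ± 91.0 (0.99), and PARP9, which pairs with DTX3L in ubiquitin signalling, fell from 853 ± 32.3 to 319.5 ± 25.4 (-1.42). PARP16 (-0.76) and PARP14 (-0.60) completed the called genes, and PARP4 (-0.56) and TNKS2 (-0.49) were not called. PARP1 (0.43) and PARP2 (0.20) lay between these values.

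Among 8 genes that handle ADP-ribose, 0 were called higher and 3 lower, against 15.7% and 23.9% of all tested loci. The list median was 0.00 as deposited, -0.24 with equal totals and -0.49 with RPL34, with 3 called lower in each. NMNAT1, which makes the NAD+ that PARP1 consumes in the nucleus, had 789, 834 and 782 normalized reads in DMSO and 115, 147 and 144 in THZ531 (log2 fold change -2.57, SE 0.12, adjusted p = 3.2e-11 in limma). PARG, the hydrolase that takes the chains apart, fell from 951 ± 46.7 to 579 ± 40.5 (-0.72), and OARD1, which removes the ADP-ribose left on the protein, from 682 ± 9.43 to 435 ± 38.7 (-0.65). CHD1L, a remodeler recruited by the chains, was at 0.48, and HPF1, the cofactor that directs PARP1 to serine, at 0.07, and neither was called.

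**Figure D5:**
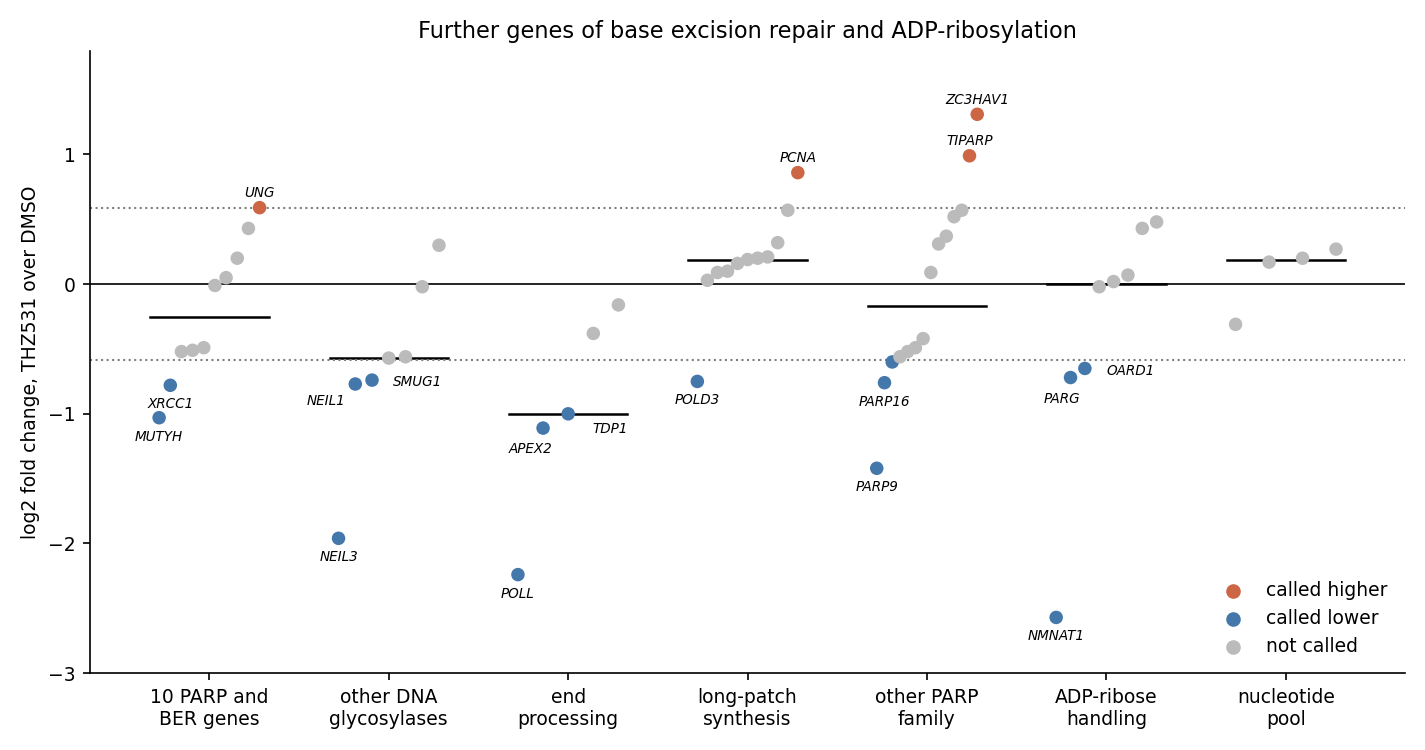
Log2 fold change of THZ531 over DMSO, as deposited, for the 10 genes and the 49 tested genes of 6 further lists (points), with list medians (black lines) and folds of 1.5 (dotted lines). NMNAT1 (-2.57), POLL (-2.24) and NEIL3 (-1.96) are the lowest and ZC3HAV1 (1.31) the highest, and with libraries scaled to RPL34 the called genes among the 49 were 1 higher and 22 lower.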

How the data were processed

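Paired-end polyA RNA-seq reads of 6 OVCAR3 libraries were processed by the authors with STAR (2.7.5a in the submitters' processing notes), hg38, featureCounts and the FAST DB annotation. The authors deposited DESeq2-normalized values, a non-negative signal made of the reads counted on each locus and scaled by the size factor of its library. They are not corrected for length. All values (100.0%) came out as whole reads (tolerance 0.01), and the reads recovered in this way gave the depth. No per-sample column was left unused.

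Values were tested as log2(value + 1) with limma 3.58.1 (trended variance, 2-sided) in R 4.3.3 over the 17568 loci that reached 10 normalized reads in 3 or more libraries. Fold changes are on that scale, and p-values were adjusted over all loci with the Benjamini-Hochberg method. edgeR 4.0.16 and DESeq2 1.42.0 on the recovered reads were alternatives, since normalized values are not counts. On simulated data the 3 tools were tested first.

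The members and lists were chosen with earlier results of these data known. Named genes are the 10 members, tested unnamed loci inside them, named loci that overlap them or lie within 1000 bases, and in each list up to 3 called genes with the largest change and up to 2 of the highest mean not called. An item that the rule named is not reported here. PARP14 and PARP16 were named after their values were seen. Transcript lengths and sequences are from RefSeq and MANE on GRCh38.p14. Alternatives were pseudocounts of 0.1 and 10, other expression minimums, scaling to the same total, the upper quartile or RPL34, an untrended limma fit, a replicate block, thresholds of an adjusted p or of a 2-fold change, and omission of each library. The 9 ratios were chosen after their values were seen.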

Additional observations from a re-analysis of the deposited data

How the results depend on the processing

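The direction of several genes rests on how the libraries are scaled. Scaling to the same total, the upper quartile or RPL34 moved the log2 fold changes by -0.24, -0.02 and -0.49, and the median of all tested loci then stood at -0.25, -0.03 and -0.50. RPL34 itself was thus higher in THZ531 as deposited, and whether this single gene held constant in the cells was not tested. With equal totals 5 of the 10 genes were called, all lower (XRCC1, MUTYH, OGG1, APEX1 and LIG3), PARP2 was at -0.04, NTHL1 at -0.25, POLB at -0.20 and UNG at 0.35. With RPL34 5 were called, all of them lower, PARP1 was at -0.06, PARP2 at -0.29, NTHL1 at -0.50, POLB at -0.45 and UNG at 0.10. All loci called were split into 1647 higher and 5615 lower with equal totals and 1078 and 7524 with RPL34, against 2751 and 4197 as deposited. A fold change of at least 2 left 4042 called loci of 6948, 1 of the 10 genes (MUTYH) and 6 further pathway genes of 16. UNG was at 0.57 with the upper quartile and with edgeR, and was not called there. XRCC1 and MUTYH were called lower in all 17 alternatives.

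Leaving out each library in turn gave between 6714 and 6910 called loci, between 2 and 4 of the 10 genes and between 15 and 20 further pathway genes. NTHL1 was at 0.03 without DMSO replicate 1, at 0.01 without DMSO replicate 2 and at 0.00 without THZ531 replicate 3. OGG1 was called only at -0.63 without DMSO replicate 1 and under equal totals and RPL34. Where these values moved, the cause was not tested. With the replicate number as a block 6918 loci, 3 of the 10 genes (1 higher and 2 lower) and 16 further genes were called. Libraries with the same number did not deviate together (correlations 0.002, 0.019 and -0.039), so the numbers were not taken as a pairing. RPPH1, TTLL3 and the unnamed locus inside OGG1 rest on few reads, and the effect of depth on the 10 genes was not tested.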
